A study of Mus musculus with 6 samples.

Results

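In mouse colonic organoids kept with TNFα, 673 of 10653 H3K4me3 peaks shared with untreated organoids were at least 500 bp wider than their untreated partner. These 673 regions were chosen by the measured peak widths. A pair was formed where an autosomal peak of the untreated (wt) list and one of the TNFα-treated (wt+TNFα) list overlapped each other and no other peak of the opposite list. The wt list held 11233 autosomal peaks and the wt+TNFα list 11565, of which 580 and 912 stayed outside such pairs. The share of pairs at least 500 bp wider was 6.32%, and 146 pairs, or 1.37%, were at least 500 bp narrower.

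The organoids were wild-type C57BL/6 colonic epithelial cultures, grown either without added cytokine or with TNFα at 40 ng/ml for 3 weeks. Chromatin was immunoprecipitated with antibodies to H3K4me3 or H3K27me3, and an input library was sequenced for each condition. There was 1 library per condition and mark, so no value has a replicate check, an error or a p-value, and every difference is one between these libraries. The peak lists themselves carry no read counts. The study's reporting summary gives many more reads for wt+TNFα than for wt in H3K4me3 and in the input, and nearly equal totals in H3K27me3. The part of the H3K4me3 depth gap in the widths was not tested.

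H3K4me3 is placed by SET1 and MLL methyltransferases at the starts of active genes, and its width varies from gene to gene, with the broadest domains often at genes of cell identity. H3K27me3 is placed by Polycomb repressive complex 2 at silent genes, and promoters that carry both marks are called bivalent. TNFα signals through its receptors to NF-κB, which in intestinal epithelium induces chemokines and its own inhibitors.

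The markers of the labelled cell type were checked first, as an H3K4me3 peak within 1000 bp of a start. Of 9 genes of colonic epithelium, 7 had one in wt and 6 in wt+TNFα. Epcam, Cdh1, Krt8, Krt18, Vil1 and Cdx2 had a peak in both, Krt20 in wt alone, and Lgr5 and Muc2 in neither. Of 11 markers of haematopoietic, stromal and endothelial cells, 0 had a peak in either condition.

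The bases added in wt+TNFα at promoters that carried H3K27me3 in wt alone are shown first, as examples of where the 2 marks were compared. Each run is the first stretch of 120 bp, free of annotated exons, that lay outside the wt H3K4me3 peak and inside the wt+TNFα peak on the downstream side. Such a stretch was found at 35 of the 52 promoters or regions, of which 24 were covered by wt H3K27me3 throughout and 7 not at all, and their CpG counts ran from 0 to 18, with a median of 4. The 4 printed were picked after these values were seen, from the largest gains and the gene lists. They are intronic, and each was covered by a wt H3K27me3 peak over 120 bp and by a wt+TNFα H3K27me3 peak over 0 bp. Capitals mark CpG, the dinucleotide enriched at promoters where H3K4me3 and Polycomb are usually found, and the sequences are from GRCm38/mm10, written 5′ to 3′ along the gene.
Ffar4, chr19:38097732-38097851, plus strand: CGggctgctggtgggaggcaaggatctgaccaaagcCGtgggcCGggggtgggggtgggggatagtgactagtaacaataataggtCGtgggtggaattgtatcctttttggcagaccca
Glis2, chr16:4595102-4595221, plus strand: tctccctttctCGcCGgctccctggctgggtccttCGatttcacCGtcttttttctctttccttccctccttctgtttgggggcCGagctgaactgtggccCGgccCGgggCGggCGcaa
Wwtr1, chr3:57575298-57575417, minus strand: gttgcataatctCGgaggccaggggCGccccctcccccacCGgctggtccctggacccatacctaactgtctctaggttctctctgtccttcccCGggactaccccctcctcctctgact
Mapk11, chr15:89149049-89149168, minus strand: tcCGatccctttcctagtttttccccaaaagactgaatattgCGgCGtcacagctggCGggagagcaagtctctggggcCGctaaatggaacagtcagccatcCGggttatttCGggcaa

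These runs hold 4, 9, 4 and 7 CpG in the order given. Ffar4 encodes a receptor for long-chain fatty acids, Glis2 a zinc-finger transcription factor, Wwtr1 the YAP relative TAZ, and Mapk11 the stress kinase p38β.

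A second set shows matches to the NF-κB motif in added bases at genes of the NF-κB pathway and at widened promoters named below. They were selected from a longer list of matches. Others, such as those at Hs3st3b1 and Epha2 and a further one at Nfkbie, are not printed. Each run is 60 bp free of annotated exons, written in the same way, and the capitals mark the match. The Nfkbia and Junb stretches lie upstream of the gene and the other 5 in its introns.
Zc3h12a, chr4:125124925-125124984, minus strand: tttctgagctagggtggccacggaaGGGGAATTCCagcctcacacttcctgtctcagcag
Nfkbie, chr17:45556599-45556658, plus strand: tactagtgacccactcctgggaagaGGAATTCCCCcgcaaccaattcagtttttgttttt
Nfkbia, chr12:55493242-55493301, minus strand: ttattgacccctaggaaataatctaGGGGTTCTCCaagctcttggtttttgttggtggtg
Junb, chr8:84981010-84981069, minus strand: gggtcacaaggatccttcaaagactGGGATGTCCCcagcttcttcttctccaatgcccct
Traf3ip2, chr10:39615913-39615972, plus strand: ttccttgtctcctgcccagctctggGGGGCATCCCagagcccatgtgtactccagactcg
Smad3, chr9:63754797-63754856, minus strand: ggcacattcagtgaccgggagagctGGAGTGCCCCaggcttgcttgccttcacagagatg
Krt7, chr15:101411322-101411381, plus strand: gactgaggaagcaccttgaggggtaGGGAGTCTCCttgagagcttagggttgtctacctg

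The motif was also counted in the 250 bp next to the wt peak, on the side where the peak grew more. The printed matches come from all added bases, so these shares do not give how often a match lies in added bases. The NF-κB motif was found in 29 of the 673 windows (4.31%) and in 2.67% of the 9980 windows of the same length at the other pairs. The AP-1 motif TGANTCA, which reads the same on both strands, was found in 7.28% and 6.44% of these windows. A match describes the letters in a window and does not show that a factor was bound.

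The widened peaks started at about the same width as others. Their median width was 1574 bp in wt and 2358 bp in wt+TNFα, against 1444 bp and 1566 bp over all pairs. The median gain was 715 bp, with a range of 500 to 4326 bp, beside 99 bp over all pairs, and both are descriptions since the gain chose the regions. A gain of 1000 bp or more was seen at 151 of the 673 peaks and of 2000 bp or more at 15, and 141 at least doubled their width. The regions held 43.1% of the bases gained over all pairs, net of losses.

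At 586 of the 673 (87.1%) both edges lay further out in wt+TNFα, against 80.3% of the pairs that gained 100 to 499 bp and 48.9% of all pairs. The summit stayed within 100 bp at 449 peaks, and at 17 (2.53%) the wt+TNFα summit lay outside the wt peak, which was the case for 0.12% of the other pairs. Peak height went up at most of the regions as well. The fold enrichment, which MACS2 computes as signal over the local background from the input, had a median of 20.8 in wt and 28.5 in wt+TNFα, beside 25.9 and 28.8 over all pairs. The regions thus had the lower median in wt and nearly the same one in wt+TNFα. The fold was higher in wt+TNFα at 534 regions (79.3%), against 60.4% of all pairs. Edges, summits and folds come from the same H3K4me3 libraries as the widths that chose the regions. A choice by width gain favours outward edges and can favour a higher fold in wt+TNFα, so these values are descriptions as well. Since the cultures are bulk samples, more cells with a mark and more of the mark per cell cannot be told apart.

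**Figure D1:**
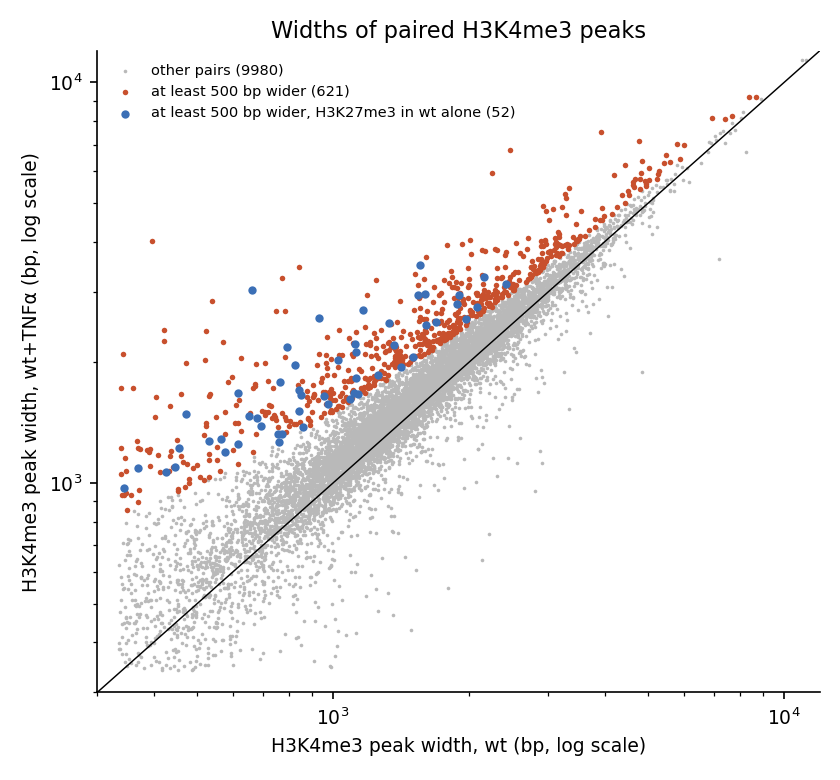
Width of each of the 10653 paired H3K4me3 peaks in wt (x axis, bp, log scale) and in wt+TNFα (y axis, bp, log scale), 1 point per pair, with the line of equal width. The 673 pairs at least 500 bp wider lie above the line, including the 52 with an H3K27me3 peak in wt alone (blue).

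The values next to the limit show how the rule divides like peaks. Just inside it were Sept9, at 1654 bp in wt and 2154 bp in wt+TNFα, Cdk14 at 518 and 1018 bp, a region with no protein-coding start at 615 and 1115 bp, RPS10-NUDT3/Rps10 at 1875 and 2376 bp, and Ppie at 1175 and 1676 bp. Just outside were Aebp2 and Mesd/Tlnrd1, each with a gain of 498 bp, and Dstn, Dido1 and Tmem268, each with 499 bp.

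A protein-coding transcript started inside 581 of the widened peaks, at 638 genes in all, with starts of 1 strand at 529 and of both strands at 52. Another 21 held starts of other gene types alone. No annotated start lay in 71 (10.5%), against 8.59% of all pairs. For the 529 peaks with 1 strand, the gain was called downstream or upstream where at least 75% of it lay at that edge.

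Most of the gain lay downstream of the transcript start. It was downstream at 320 peaks (60.5%), upstream at 42 (7.94%) and shared by both edges at 167 (31.6%). Among the 3657 single-strand pairs that gained only 100 to 499 bp, 39% extended downstream, 14.5% upstream and 46.5% at both edges. The median outward shift of the downstream edge was 571 bp and of the upstream edge 138 bp. Measured from the main start, which is the one most transcripts share, the downstream edge lay at a median of 1271 bp in wt and 1924 bp in wt+TNFα, and the upstream edge at 293 bp and 534 bp. The main start lay outside the wt peak at 74 genes (14%), against 3.77% of the pairs that gained 100 to 499 bp.

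The added bases thus ran mainly into the gene. Of them, 60.9% were intronic, 15% exonic and 24.1% outside protein-coding genes, while the wt peaks themselves were 50% intronic, 30.2% exonic and 19.8% outside. The added bases held 49.4% G+C against 56.6% in the wt peaks, and their CpG count was 0.358 of that expected from base composition, against 0.636. Pairs that gained 100 to 499 bp had a like step, from 0.702 in the wt peak to 0.38 in the added bases. At the members with H3K27me3 in wt, such as those printed above, the added bases were richer in G+C (57%) and in CpG (0.59 of expected), and so were the wt peaks (66.3% and 0.8), so that the step down from peak to added bases was there too.

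**Figure D2:**
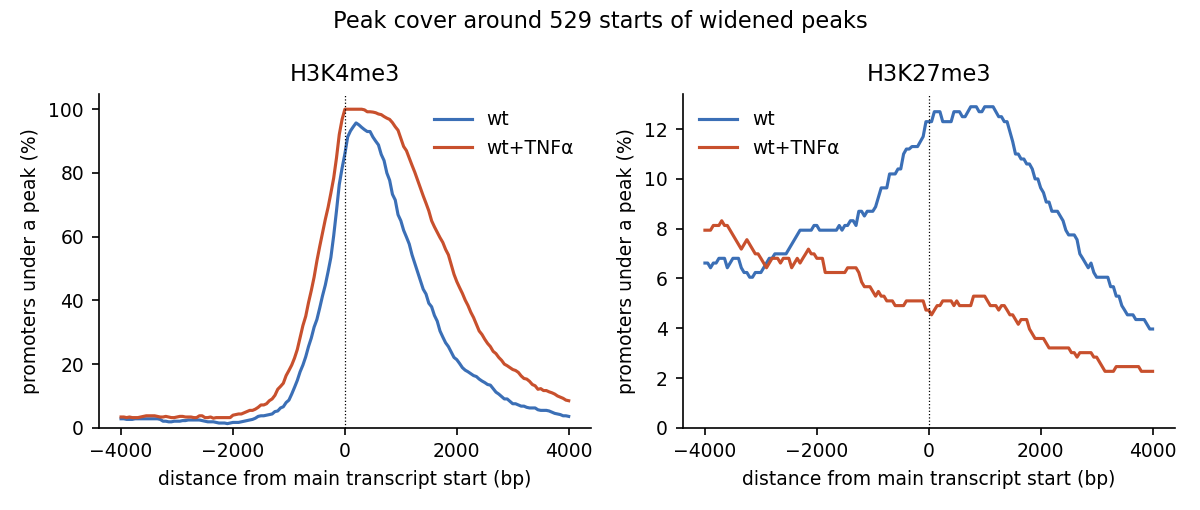
Share of 529 widened promoters under a peak (y axis, percent) at each distance from the main transcript start (x axis, bp, transcription to the right), for H3K4me3 (left) and H3K27me3 (right), in wt and wt+TNFα. For H3K4me3 the wt+TNFα line lies outside the wt line, with the wider gap downstream, and for H3K27me3 the wt line is the higher one around the start.

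Several of the widest gains were long runs into the gene body. The largest was at the shared promoter of Galnt4, a mucin-type glycosyltransferase, and the centriolar gene Poc1b (chr10:99106308-99113101), which measured 2468 bp in wt and 6794 bp in wt+TNFα, with 4305 bp of the gain downstream. At Traf3ip2, the adaptor Act1 of IL-17 receptor signalling (chr10:39612313-39618262), the width was 2257 bp in wt and 5950 bp in wt+TNFα. Its fold enrichment stayed at 13.7 and 13.6, so this peak was wider and no higher.

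At other genes in this group the peak was also taller. Hs3st3b1, a heparan sulfate sulfotransferase, measured 772 and 3243 bp with folds of 6.61 and 20.2. Ffar4 (chr19:38096899-38099936) measured 662 and 3038 bp with folds of 9.82 and 28.3. Smad3, a transducer of TGF-β signals, measured 3337 and 5456 bp, Lama5, a laminin chain of basement membranes, 1605 and 3677 bp, and the ephrin receptor Epha2 3268 and 5255 bp. All 5 of these genes extended downstream, by 1780 to 2332 bp. The heat-shock gene Hspa1b measured 1559 and 3493 bp, again downstream, by 1690 bp.

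Upstream extensions were fewer. The largest was at Nfib, a nuclear factor I transcription factor, which gained 1877 bp upstream and 489 bp downstream. The cytokine gene Lif (chr11:4264179-4268128) gained 1733 bp upstream, and its upstream edge lay 884 bp from the start in wt and 2617 bp in wt+TNFα. Lor, which encodes the cornified envelope protein loricrin, gained 1157 bp upstream, St3gal4, a sialyltransferase, 1341 bp, and Rara, a retinoic acid receptor, 1009 bp. Scnn1a, the α subunit of the epithelial sodium channel, grew on both sides, from 538 to 2855 bp, as did Bcar3 (2013 and 4040 bp), the tRNA synthetase gene Vars (2918 and 4918 bp) and 2010111I01Rik (3925 and 7502 bp).

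Several of the largest gains had no protein-coding start. A region at chr15:85677492-85681513 measured 397 bp in wt and 4022 bp in wt+TNFα, 22260 bp from the nearest start, that of Lncppara. Another at chr11:8621633-8625091 measured 840 and 3459 bp with folds of 15.9 and 45.3, 39444 bp from a start of Tns3. A region at chr11:79710819-79714747 held the annotated start of the microRNA gene Mir193a and measured 1789 and 3929 bp. Neighbours of known genes were in this class. A region 1170 bp from a Ccnd1 start measured 523 and 2393 bp, and one 5107 bp from a start of the complement gene C3 measured 342 and 2094 bp. A region at chr11:94159969-94162382 measured 422 and 2414 bp. Apart from the Mir193a region, which holds a start, these are the 5 largest gains among the 71 regions with no annotated start.

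Genes of the NF-κB pathway and the TNF response were then taken as a list. Of its 37 genes, 30 had a start in a pair, in 32 pairs, of which 28 were wider in wt+TNFα, 8 (25%) by at least 500 bp and 0 narrower by as much. Over all pairs 74.4% were wider and 6.32% by at least 500 bp. The median gain was 204.5 bp, beside 99 bp over all pairs. With 1 library a condition these are counts, and they do not set the list apart from others.

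The largest gains of this list were at Zc3h12a and at genes of the IκB family. Zc3h12a, which encodes the RNase regnase-1 that degrades cytokine mRNA (chr4:125123277-125128042), measured 2970 bp in wt and 4766 bp in wt+TNFα, with 1736 bp of the gain downstream. The IκB family followed, with Nfkbiz, which encodes the nuclear cofactor IκBζ, at 5794 and 7001 bp, Nfkbie at 825 and 1981 bp and Nfkbia, which encodes IκBα, at 3173 and 4182 bp. Nfkbie grew downstream alone, by 1147 bp against 9 bp upstream, and Nfkbiz and Nfkbia at both edges. Wider did not always mean taller, since the fold at Nfkbiz was 47.1 in wt and 38.9 in wt+TNFα and at Nfkbia 35.5 and 28.9.

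The kinase gene Ikbke, an IKK relative, gained 891 bp and Nuak2, another kinase gene, 687 bp. Junb, an AP-1 subunit, gained 878 bp, of which 798 bp lay upstream. Ier3, an early response gene, shares its peak with Flot1 and gained 574 bp. The NF-κB subunit genes stayed below the limit, and their gains were 485 bp at Nfkb1, 457 bp at Nfkb2, 209 bp at Rel, 165 bp at Relb and 37 bp at Rela.

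Of the chemokine and cytokine list, 13 of 41 genes had a start in a pair, and 5 of these pairs (38.5%) were widened, against 6.32% of all pairs, with a median gain of 461 bp over the 13 and 99 bp over all. At Tnf itself (chr17:35199195-35202411) the peak measured 1247 bp in wt and 3217 bp in wt+TNFα, and the fold was 9.85 and 32.2. The wt peak, at 35200718 to 35201964, stopped short of the main start at 35202007, and the wt+TNFα peak covered it. Lif, described above, measured 1930 and 3950 bp. The chemokine genes Cxcl16, in a peak shared with Zmynd15, and Cxcl5 gained 858 and 600 bp, and the cytokine gene Il15 gained 572 bp. Cxcl1, a neutrophil chemokine, gained 478 bp and Csf1 461 bp, both just short of the limit.

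The interferon and antigen presentation list differed little from all pairs in its median, at 99.5 bp over 24 pairs. Over all pairs it was 99 bp. Of the 24, 1 (4.17%) was a member, against 6.32% of all pairs, that of Irf1, with 1730 bp in wt and 2237 bp in wt+TNFα. Irf8, an interferon regulatory factor, changed by -2946 bp and was the 1 pair of the list at least 500 bp narrower.

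Crypt and regeneration genes also held widened peaks. Of 22 pairs at stem cell and Wnt genes, 22 were wider in wt+TNFα, against 74.4% of all pairs. By at least 500 bp there were 7 (31.8%), against 6.32% of all pairs, and the median gain was 330 bp, beside 99 bp. Cd44, the hyaluronan receptor of crypt cells (chr2:102899150-102901842), measured 746 bp in wt and 2693 bp in wt+TNFα, with 1852 bp of the gain downstream and folds of 9.01 and 21. Rnf43, a ubiquitin ligase that removes Wnt receptors, measured 4434 and 6235 bp, with its upstream edge 556 bp from the start in wt and 542 bp in wt+TNFα. Tcf7l2, the Wnt effector, gained 970 bp, Lrig1 922 bp, Prom1 767 bp, Slc12a2 636 bp and Hopx 531 bp. Lgr5, the stem cell receptor, had no H3K4me3 peak at its start in either condition.

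The regenerative and YAP list had 13 pairs, of which 6 (46.2%) were members, against 6.32% of all pairs, and a median gain of 367 bp, beside 99 bp. Krt7, a keratin of simple epithelia (chr15:101410901-101414223), measured 1516 bp in wt and 3323 bp in wt+TNFα, with folds of 6.89 and 34.5. Its main start, at 101411043, lay outside the wt peak and inside the wt+TNFα peak. Wwtr1 measured 762 and 1789 bp, and Ajuba, a LIM protein of the Hippo pathway, 2418 and 3144 bp. The EGF receptor ligand gene Areg gained 811 bp, the TAZ and YAP partner gene Tead1 746 bp and the annexin gene Anxa3 670 bp.

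In the senescence and cell cycle list, 8 of 41 pairs (19.5%) were members, against 6.32% of all pairs. The median gain was 133 bp, beside 99 bp, and 1 pair was narrower by at least 500 bp, that of Map2k6 at -677 bp. Next to Smad3, the largest gain was at Cdkn1b, which encodes the cell cycle inhibitor p27, at 3547 bp in wt and 4772 bp in wt+TNFα, with a lower fold in wt+TNFα (42.7 and 30.7). The cell cycle inhibitor genes Cdkn2d and Cdkn1a gained 571 and 551 bp. On the other side of the cycle, E2f2 gained 810 bp and the cyclin gene Ccnd1 806 bp, and Mdm2, the p53 ligase, gained 523 bp. Mapk11 gained 819 bp, and Cdkn2a, which encodes p16 and p19, gained 206 bp.

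Of the 17 pairs of the differentiated epithelium list, 5 (29.4%) were members, against 6.32% of all pairs, while the median gain over the list was 41 bp, below the 99 bp over all pairs. Atoh1, the master regulator of secretory cells (chr6:64727734-64730628), measured 1552 bp in wt and 2895 bp in wt+TNFα, with 688 bp added downstream and 655 bp upstream. Agr2, a goblet cell disulfide isomerase, gained 989 bp, the carbonic anhydrase gene Car2 554 bp, the keratin gene Krt8 549 bp and the transcription factor gene Hnf4a 536 bp. Another Hnf4a pair changed by -76 bp. Of the 17 pairs, 11 were wider at all in wt+TNFα, while 74.4% of all pairs were. The list held 1 pair narrower by at least 500 bp, that of Slc9a3 at -634 bp, and Epcam changed by -469 bp. Of 34 pairs at regulators of H3K4 and H3K27 methylation, 2 were members (5.88%), close to the 6.32% of all pairs. They were the Polycomb gene Cbx6 with 698 bp and the demethylase gene Kdm2a with 502 bp, while another Kdm2a pair changed by -2 bp. Of 14 pairs at homeobox and T-box genes, 2 were members (14.3%), where Hoxa9 gained 984 bp and Hoxb9 680 bp. Another pair, with starts of Hoxa9 and Hoxa10, changed by -326 bp. The medians of these lists were 137 and 56 bp. None of the 11 markers of other cell types had a start in a pair.

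**Figure D3:**
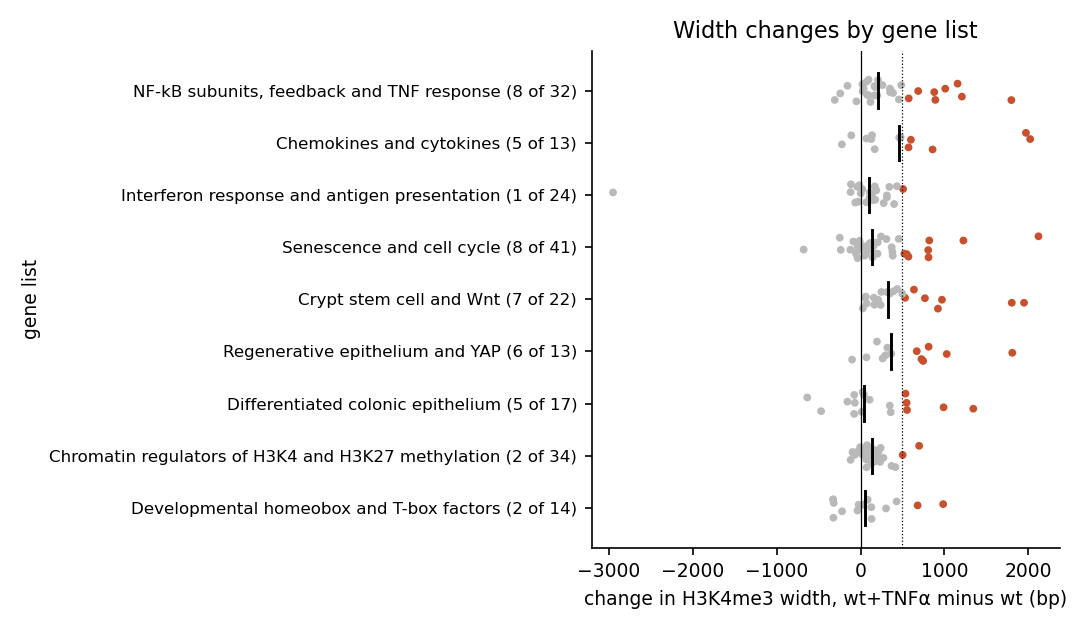
Change in H3K4me3 width (x axis, bp, wt+TNFα minus wt) for each pair with a start of a listed gene, 1 point per gene and pair, by list, with members in orange, other pairs in grey, the median as a bar and the 500 bp limit dotted. Points are jittered in height only, and the labels give members of all pairs, from 8 of 32 for the NF-κB list to 2 of 14 for the homeobox list.

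**Figure D4:**
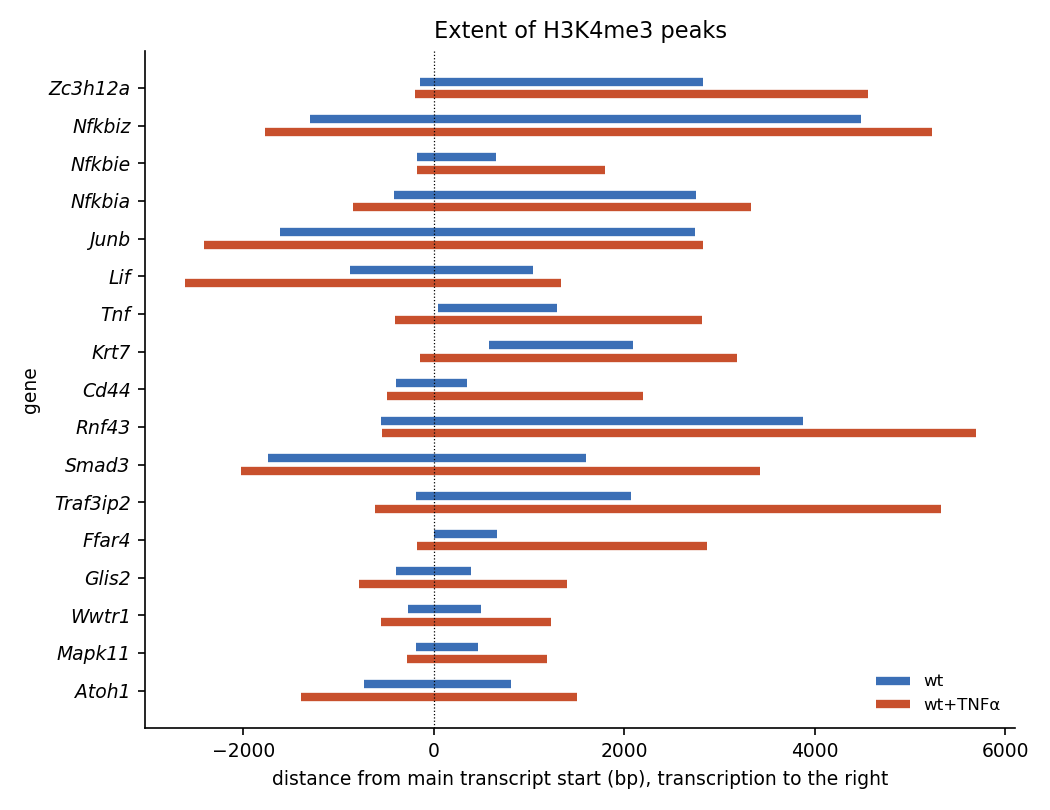
Extent of the H3K4me3 peak of 17 named genes in wt and wt+TNFα (bars), as distance from the main transcript start (x axis, bp, transcription to the right). Most bars grow to the right, those of Junb and Lif grow to the left, and the wt bars of Tnf and Krt7 do not reach the start.

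H3K27me3 was not used to choose the regions, and it was measured in separate libraries. It was more common at the widened peaks in wt and less common in wt+TNFα. Of the 673 wt+TNFα intervals, 86 (12.8%) overlapped an H3K27me3 peak in wt and 38 (5.65%) in wt+TNFα. Over all 10653 pairs the shares were 6.79% and 6.88%, close to each other. This is the opposite of the whole list, since the autosomal H3K27me3 list spanned 228 Mb after TNFα and 101 Mb without it, a ratio of 2.25.

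Most of the change was a peak called in wt and none called in wt+TNFα. H3K27me3 was present in wt alone at 52 of the regions, in both conditions at 34, in wt+TNFα alone at 4 and in neither at 583. Of the 52, 28 had a wt H3K27me3 peak with a −log10 q of at least 2. Of the 86 with H3K27me3 in wt, 60.5% had none in wt+TNFα, against 14.9% of the 637 other pairs with H3K27me3 in wt. The bases covered were fewer in wt+TNFα at 66 of the 86, equal at 20 and more at 0. They were fewer at 76.7% of these members and at 28.9% of the 637 other pairs.

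The bases of the wt peak and the added bases were taken apart. H3K27me3 covered 10.8% of the added bases in wt and 4.62% in wt+TNFα, and over all pairs, where the added bases also had less, 6.28% and 4.03%. Of the wt peak bases it covered 5.21% and 1.88% at the members, and 2.89% and 3.1% over all pairs. The narrowed pairs went the other way, where 14 of 146 (9.59%) lay under H3K27me3 in wt and 34 (23.3%) with TNFα. At the pairs that gained 100 to 499 bp the shares were 5.21% and 4.39%.

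**Figure D5:**
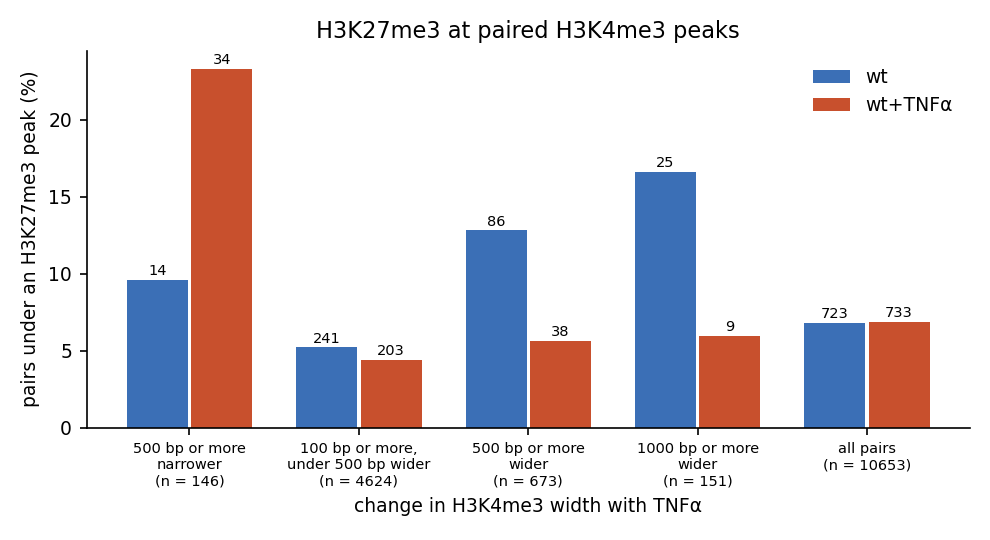
Share of H3K4me3 pairs whose wt+TNFα interval overlaps an H3K27me3 peak (y axis, percent) in wt and wt+TNFα, for pairs grouped by their change in H3K4me3 width (x axis), with the number of pairs above each bar. The share is lower in wt+TNFα at the widened pairs (12.8% and 5.65%) and higher at the narrowed pairs (9.59% and 23.3%).

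Weak promoters carried much of this. The pairs were divided by wt H3K4me3 fold into 4 groups of equal size, and 66 of the 86 members with H3K27me3 in wt were in the lowest, with folds up to 16.2. In that group 9.68% of pairs were members, of which 25.6% had H3K27me3 in wt and 12.8% in wt+TNFα, against 19.2% and 18.3% of all its pairs. In the next group the shares were 11% and 2.74% of members against 5.48% and 5.82% of pairs. Each of the upper groups had 2 members with H3K27me3 in wt. By direction of the extension, H3K27me3 in wt was found at 39 of the 320 downstream members, 36 of the 167 that grew at both edges and 1 of the 42 upstream members, and in wt+TNFα at 17, 18 and 0. The difference between directions was not tested.

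The members with H3K27me3 in wt alone and the largest gains came from varied families. The peak covered all of the wt+TNFα interval in wt at Glis2, Adamts15, a secreted metalloproteinase gene, and Lor. Glis2 (chr16:4593927-4596114) measured 789 bp in wt and 2188 bp in wt+TNFα, and its H3K4me3 fold was 9.41 and 30.7. Adamts15 measured 1164 and 2705 bp with folds of 6.32 and 27.4. The cover in wt was partial at the myelin protein gene Pmp22 (78.6%), the small GTPase gene Rab15 (76.5%) and Ffar4 (69%). It was smaller at Phlda3, a p53 target that restrains AKT (20.6%), Hspa1b (18.3%) and a region 1070 bp from a start of Id2 (12%).

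These H3K27me3 peaks were modest in height. The wt peaks at members had a median fold of 2.8, beside 2.1 over the autosomal list, and the wt+TNFα peaks at members 2.4 beside 1.9. The median −log10 q was 3.35 for the wt peaks at members and 3.32 for the wt+TNFα peaks there. Over the autosomal lists it was 0.778 in wt and 1.33 in wt+TNFα, so most peaks of both lists lay below 2. The fold of the wt peak was 3.12 at Pmp22 and 3 at Glis2. Of the listed genes, Wwtr1, Mapk11 and Cbx6 were covered by H3K27me3 over the whole interval in wt and Ajuba over 33.4%, with none in wt+TNFα.

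H3K27me3 stayed at other widened promoters. Hs3st3b1 was covered throughout in both conditions, with H3K27me3 folds of 3.98 in wt and 3.73 in wt+TNFα, while its H3K4me3 peak grew by 2471 bp. At Atoh1 the cover was 63.6% in wt and 47.9% in wt+TNFα. Isl1, Nrp1 and St3gal1 were picked after their values were seen, as large gains with H3K27me3 in both conditions. Isl1, a LIM homeobox gene, and St3gal1, a sialyltransferase gene, were covered throughout in both, and Nrp1, a semaphorin and VEGF receptor gene, over 100% in wt and 56.7% in wt+TNFα.

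The 4 members with H3K27me3 in wt+TNFα alone had short overlaps. The Notch glycosyltransferase gene Lfng was covered over 17.9% of the interval, the corepressor gene Rcor2 over 17.4%, Tmem102 over 4.31% and the TEAD factor gene Tead3 over 3.13%. Their H3K4me3 gains were 786, 596, 536 and 752 bp. Peaks of both marks over one interval may lie on the same allele or in different cells, which cannot be told apart in these libraries.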

How the data were processed

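ChIP-seq peak lists of H3K4me3 and H3K27me3 from wt and wt+TNFα colonic organoids were used, 1 library each, 4 in all; the reads and the 2 input libraries were not analysed here. Groups follow the sample labels. According to the methods, the authors used fastp for trimming, BWA 2.2 for alignment (GRCm38/mm10) and SAMtools 1.11 to remove duplicates, left out blacklisted regions, and called peaks with MACS2 2.1.0 against the input of each condition. Their reporting summary names another MACS2 version. H3K4me3 was called as narrow and H3K27me3 as broad peaks. In the deposited lists the fold enrichment is a ratio to the local background, p-values and q-values are given by the authors as −log10, and the deposited integer score was not used. A spike-in, which the methods do not describe, appears in the names of all lists but that of H3K27me3 in wt+TNFα. Since the authors computed these values per library, and a called width depends on depth, widths and folds of the conditions may differ for technical reasons.

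Peaks were paired on the 19 autosomes in 1-based coordinates, with an overlap of 1 bp, in Python 3.11.15 with pandas and numpy. Transcript starts came from GENCODE M21 and sequences from the RefSeq copy of GRCm38, and 0 peaks reached past a chromosome end. Columns of other samples numbered 0. The regions, gene lists and tests were chosen with earlier results of these data known. Named are genes at the 20 largest gains, at 5 pairs on each side of the 500 bp limit, at up to 10 members each with H3K27me3 in one condition alone, at the 5 largest upstream and downstream gains, at up to 5 members without a start, and all members in a gene list. The listed genes named with gains under 500 bp or a narrower peak were chosen after their values were seen. A gene that this names is not reported here. Pairing, direction and overlap were tested on simulated data. Alternatives covered the width limit, pairing, peak strength, the edge share, the starts used and the H3K27me3 overlap.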

Additional observations from a re-analysis of the deposited data

How the results depend on the processing

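The number of widened pairs was 1630 with a limit of 300 bp, 151 with 1000 bp and 308 (5.98% of 5154 pairs) with only the stronger peaks of each list, by −log10 q above its median; the other 5 settings gave 480 to 687. The downstream share was 76.4% when 60% of the gain had to lie at an edge and 34.8% with 90%, and 60.8% to 63.4% otherwise. With peaks of −log10 q of at least 2, H3K27me3 was found at 8.77% of members in wt and 5.05% in wt+TNFα. Over all pairs that setting gave 4.65% in wt and 5.79% in wt+TNFα. At the 151 members of 1000 bp or more the shares were 16.6% in wt and 5.96% in wt+TNFα. Of the alternatives added after seeing the data, 1000 bp added on each side gave 13.8% without TNFα and 7.73% with it (8.55% and 10.4% of all pairs), and counting over the wt interval 11.9% and 5.05% (6.69% and 6.85%). At equal covered length the shares were 12.8% and 4.9% of members and 6.79% and 5.47% of all pairs. This setting kept all 30347 wt peaks, down to a −log10 q of 0.302. It kept only 7641 of 48962 wt+TNFα peaks, down to 2.34, so weaker peaks counted in wt than in wt+TNFα. Of the 52 members with H3K27me3 in wt alone, 28 had a wt peak with −log10 q of at least 2, and 44 had no wt+TNFα peak within 1000 bp. In each of these settings the share of members was lower in wt+TNFα than in wt. No paired analysis was possible because there is 1 library per condition and mark. A missing peak means only that none was called, at nearly equal H3K27me3 read totals by the study's reporting summary. The input that each list was called against had many more reads in wt+TNFα, so the lists may differ for that reason too, which was not tested.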

Other observations

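Widened pairs were spread over the genome. Their share of all pairs ranged from 4.14% on chromosome 13 to 9.31% on chromosome 15. Chromosome X, which the pairing leaves out, had 300 pairs formed in the same way, of which 19 (6.33%) were at least 500 bp wider in wt+TNFα.

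Some loci held more than a single widened region. Ccnd1 had a widened peak over its start and the region with no protein-coding start 1170 bp from a Ccnd1 start, described above. The latter had an H3K4me3 fold of 7.99 without TNFα and 15.5 with it, and the former 29 and 33.8.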
